A study of Mus musculus with 2 samples.

Results

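The kallikrein and seminal vesicle secretory genes were taken by symbol, as every gene named Klk or Svs followed by a number, the Klk1b genes included, that both deposited gene tables held. There were 34 such genes among 43346 Ensembl genes. They comprised 7 Svs genes, Klk1, 13 Klk1b genes, 12 other kallikreins and the pseudogene Klk1b7-ps. Polyadenylated RNA longer than 200 nt came from the gonadal fat pad, the white fat depot beside the gonads, of C57BL/6J mice aged 8 weeks with no treatment named. The labels give 1 group of 2 stranded, paired-end libraries, biological replicates 1 and 2, and describe the tissue of both as pooled from males and females. Both libraries carry 1 donor identifier, and nothing in the labels shows how many mice, or what share of males, stand behind each. With no second condition, the libraries are set side by side without any test.

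Kallikreins are secreted serine proteases whose genes lie side by side in 1 cluster, and in the mouse the branch of Klk1 has expanded into the Klk1b genes. Klk1, the tissue kallikrein, releases kinins from kininogen, and Klk1b proteases are abundant in the submandibular gland, where several process growth factors. The Svs genes encode the main proteins of seminal vesicle fluid, which transglutaminase cross-links into the copulatory plug. Androgens drive the expression of Svs genes in the seminal vesicle and of many Klk1b genes in the salivary gland.

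Levels are given in TPM (transcript abundance corrected for transcript length and scaled to 1 total per library) and in expected counts, the estimated number of fragments of a gene, which need not be whole. Over all genes, replicate 1 held 47106979 expected counts and replicate 2 held 54129473. The labelled tissue was checked against 6 adipocyte markers, all at 1 TPM or more in both libraries, with a sum of 5932.61 TPM in replicate 1 and 7738.06 TPM in replicate 2. The 8 markers of epididymal epithelium, the lining of the duct in which sperm mature, were also all at that level, with a sum of 32415.98 TPM in replicate 1 and of 21626.29 TPM in replicate 2.

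Kallikrein and Svs genes as a whole were low, and most of their RNA was in replicate 2. Their summed level was 10.69 TPM in replicate 1 and 94.87 TPM in replicate 2, from 284 and 3194 expected counts. This was 0.00111% of all gene TPM in replicate 1 and 0.00973% in replicate 2. Only 3 of the 34 genes reached 1 TPM in both libraries, against 33.0% of all genes, and these were Klk1b5, Klk1b26 and Klk1b27. Counting libraries apart, 3 genes reached that level in replicate 1 and 10 in replicate 2. At least 3 expected counts in both libraries were present for 12 of the 34 genes, against 45.2% of all genes, and all 12 were kallikreins.

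**Figure D1:**
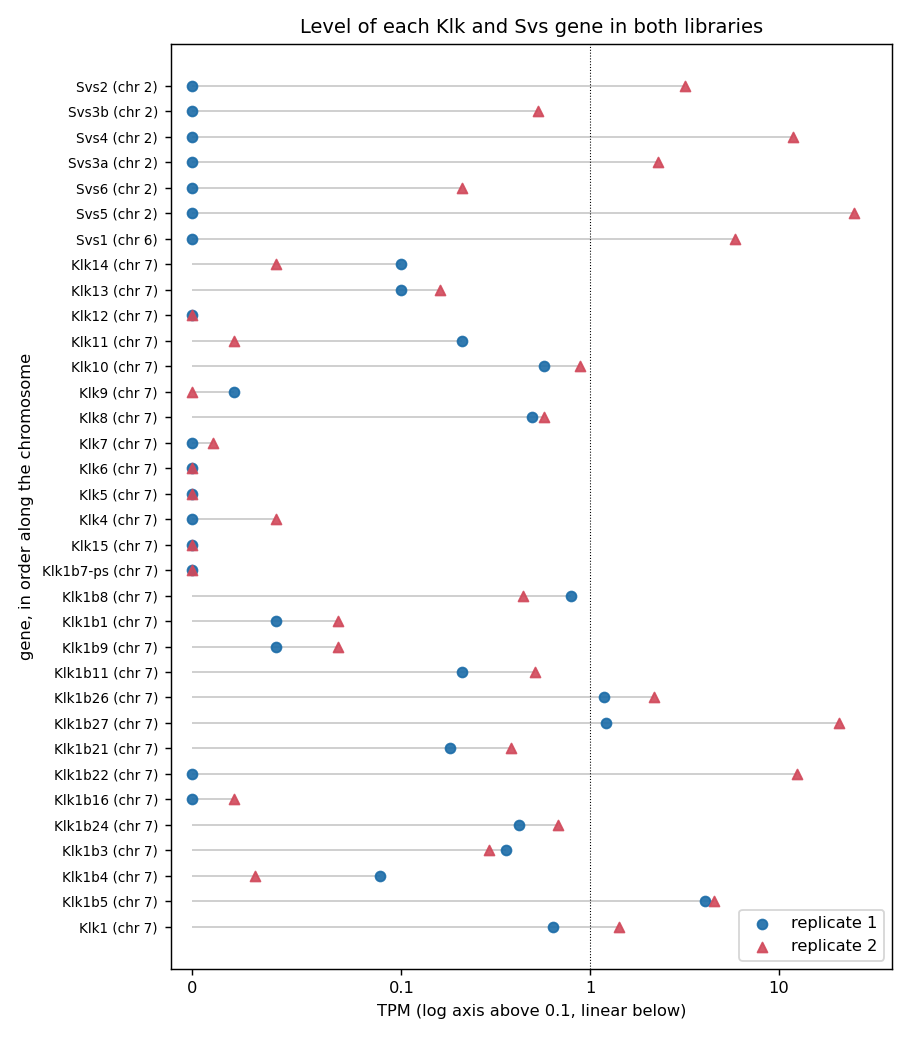
TPM of each of the 34 genes in replicate 1 (circles) and replicate 2 (triangles), in chromosome order, on an axis that is logarithmic above 0.1 and linear below; the dotted line marks 1 TPM. All 7 Svs genes and Klk1b22 sit at 0 in replicate 1, while Klk1b5 is close in both libraries, at 4.04 and 4.54 TPM.

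All 7 Svs genes were listed at 0 in replicate 1 and all 7 had counts in replicate 2. Their summed level was 0 TPM in replicate 1 and 49.07 TPM in replicate 2, and the sum of counts was 0 in replicate 1 and 1781 in replicate 2. A count of 0 does not show absence. The folds below therefore set a floor of 3 counts in replicate 1 against the counts of replicate 2, each as a share of its library's counts. They take the replicate 2 count as exact and are not lower bounds. The counting interval of the ratio, given beside each fold, allows smaller folds. Fewer cells of a type and less RNA per cell cannot be told apart in bulk tissue.

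Svs5, Svs4 and Svs6 encode small secreted proteins of the seminal vesicle that belong to 1 rapidly evolving gene family with Svs2 and Svs3. Svs5 had 0 TPM (0 counts) in replicate 1 and 25.05 TPM (463 counts) in replicate 2, the highest level of any of the 34 genes in either library. Against that floor Svs5 was 134.31-fold lower in replicate 1 than in replicate 2, and the 95% counting interval of the ratio, replicate 1 over replicate 2, reached up to 0.00919. Of its TPM in replicate 2, 97.38% was assigned to the transcript Svs5-201 and 2.62% to Svs5-202. Svs4, best known from the rat as an immunomodulatory protein of semen, had 0 TPM in replicate 1 and 11.96 TPM (282 counts) in replicate 2. Against the floor it was 81.8-fold lower in replicate 1, with a counting interval up to 0.0151. Svs6 lies next to Svs5 and had 0 counts in replicate 1 and 3 counts (0.21 TPM) in replicate 2, which is no more than the floor.

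Svs2 and Svs3 proteins form the bulk of the coagulum and are substrates of transglutaminase 4, and Svs2 also coats sperm in the mouse uterus. Svs2 was at 0 TPM in replicate 1 and at 3.17 TPM (209 counts) in replicate 2. Against the floor Svs2 was 60.63-fold lower in replicate 1, with a counting interval up to 0.0205. Its TPM in replicate 2 was split between Svs2-201, with 76.81%, and Svs2-202, with 23.19%. Svs3a was at 0 TPM in replicate 1 and at 2.28 TPM (102.63 counts) in replicate 2. Against the floor Svs3a was 29.77-fold lower in replicate 1, with a counting interval up to 0.0419. Its near copy Svs3b was at 0 TPM in replicate 1 and at 0.53 TPM (25.37 counts) in replicate 2. The transcripts of this pair are 93.18% identical, and 64.96% of the 76-base words of Svs3a and 66.7% of those of Svs3b occur in no other transcript. Counts of Svs3a and Svs3b are therefore uncertain as to which of them they belong to, and the deposited posterior SD of the count was 2.1 for each.

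Svs1, on chromosome 6, encodes a secreted relative of the copper amine oxidases that is incorporated into the plug. It had 0 counts in replicate 1 and 696 counts (5.87 TPM) in replicate 2, the largest count of any of the 34 genes. Against the floor Svs1 was 201.9-fold lower in replicate 1, with a counting interval up to 0.00611. Every 76-base word of Svs1, Svs2, Svs4, Svs5 and Svs6 was unique to its gene. Within replicate 2 the levels ran from Svs5 through Svs4, Svs1, Svs2, Svs3a and Svs3b down to Svs6. The deposited TPM intervals of neighbours in this order did not overlap except for Svs2 with Svs3a and Svs3b with Svs6, where Svs2 spanned 2.74 to 3.61 TPM and Svs3a 1.85 to 2.75 TPM. Those intervals cover estimation within 1 library only.

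Svs5 and Svs6 are shown upstream because near-identical sequence stood before a gene with 463 counts in replicate 2 and a gene with 3. The 250 bases before the RefSeq transcription start (build GRCm38.p6, plus strand) aligned over 246 bases with 96.34% identity. Svs5 covers chr2:164332515-164332764 and Svs6 chr2:164316501-164316750. Capitals mark bases that differ from, or have no partner in, the other gene.
Svs5: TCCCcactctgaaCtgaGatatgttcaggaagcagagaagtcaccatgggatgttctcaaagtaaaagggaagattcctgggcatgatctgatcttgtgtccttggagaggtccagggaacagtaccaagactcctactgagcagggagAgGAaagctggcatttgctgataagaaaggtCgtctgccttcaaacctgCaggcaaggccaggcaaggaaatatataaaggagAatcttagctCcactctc
Svs6: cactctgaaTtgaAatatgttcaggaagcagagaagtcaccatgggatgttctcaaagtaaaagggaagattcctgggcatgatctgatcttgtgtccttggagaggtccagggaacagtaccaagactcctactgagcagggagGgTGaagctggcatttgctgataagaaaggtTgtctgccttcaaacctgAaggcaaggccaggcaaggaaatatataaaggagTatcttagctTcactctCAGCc
Both windows hold the motif TATAAA on the gene strand, within the run tatataaa, starting 28 bases before the start in Svs5 and 32 bases before it in Svs6. The windows of Svs3a and Svs3b, which differed in level in replicate 2, were 97.59% identical over 249 aligned bases.

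The Klk1b genes fell into a pair that differed widely between the libraries and a remainder of smaller differences, none over 2-fold on the scale of log2(TPM + 1). Klk1b27 and Klk1b22 together held 1.21 TPM in replicate 1 and 33.43 TPM in replicate 2. Klk1 and the other Klk1b genes, 12 in all, had a sum of 7.99 TPM in replicate 1 and of 10.65 TPM in replicate 2. Most of these were below 1 TPM in both libraries and so could not pass 2-fold on the scale of log2(TPM + 1). By share of counts Klk1, Klk1b11 and Klk1b21 were over 2-fold lower in replicate 1, and Klk1b4, with 2 and 1 counts, over 2-fold higher. Among these genes only Klk1 had a counting interval that excluded 1.

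Klk1b27 encodes a protease described in Leydig cells, the androgen-producing cells of the mouse testis. It was at 1.21 TPM (30 counts) in replicate 1 and 20.88 TPM (638.49 counts) in replicate 2. Its share of all counts in replicate 1 was 0.054 of that in replicate 2, with a 95% counting interval from 0.0362 to 0.0779. Klk1b22, a protease known from the mouse submandibular gland, was at 0 TPM in replicate 1 and at 12.55 TPM (368 counts) in replicate 2. Against the floor of 3 counts it was 106.75-fold lower in replicate 1, with a counting interval of the ratio up to 0.0116. Of the 76-base words, 99.74% of those of Klk1b22 and 94.84% of those of Klk1b27 occurred in no other transcript, against a median of 94.7% over the Klk1b genes. They are not adjacent: Klk1b21, whose product has also been described in Leydig cells, lies between them and was at 0.18 TPM (4.6 counts) in replicate 1 and 0.38 TPM (12 counts) in replicate 2.

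The upstream windows of the pair are shown with the motif TTTAAA in capitals, because that motif was shared by nearly all Klk1b genes whatever their level. Both lie on the plus strand of GRCm38.p6, at chr7:44052040-44052289 for Klk1b27 and at chr7:44112423-44112672 for Klk1b22.
Klk1b27: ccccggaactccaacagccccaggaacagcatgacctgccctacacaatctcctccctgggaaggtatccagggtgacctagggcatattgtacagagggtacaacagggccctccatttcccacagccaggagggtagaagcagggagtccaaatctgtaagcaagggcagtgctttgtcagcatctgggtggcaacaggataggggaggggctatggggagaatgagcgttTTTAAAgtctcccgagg
Klk1b22: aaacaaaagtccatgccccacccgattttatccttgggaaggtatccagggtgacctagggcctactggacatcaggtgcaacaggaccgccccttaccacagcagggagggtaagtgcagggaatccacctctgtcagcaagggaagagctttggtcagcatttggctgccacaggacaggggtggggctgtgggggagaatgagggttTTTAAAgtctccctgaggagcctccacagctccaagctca
The motif began 17 bases before the RefSeq start of Klk1b27 and 40 bases before that of Klk1b22. The window of Klk1b27 was 94.64% identical over 224 aligned bases to that of Klk1b21, which held 12 counts in replicate 2 against 638.49 for Klk1b27. Klk1b21 was the 1 Klk1b gene whose window lacked TTTAAA, and its window aligned to that of Klk1b27 with the start sites offset.

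Klk1b5 was the only gene of the 34 whose level was above 2 TPM in both libraries. It was at 4.04 TPM (97.33 counts) in replicate 1 and 4.54 TPM (134.58 counts) in replicate 2, and the counting interval of the ratio, 0.629 to 1.08, included 1. Klk1b26, a prorenin-converting protease of the mouse submandibular gland, was at 1.18 TPM (29 counts) in replicate 1 and 2.19 TPM (66 counts) in replicate 2. Klk1 was at 0.64 TPM (15.67 counts) in replicate 1 and 1.43 TPM (43.42 counts) in replicate 2. For these last genes the replicate 1 share of counts was 0.505 (0.314 to 0.793) and 0.415 (0.225 to 0.775) of that in replicate 2, so both counting intervals lay below 1, while neither gene was over 2-fold apart on the scale of log2(TPM + 1).

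Of the remaining Klk1b genes, Klk1b8 and Klk1b3 were at about the same level or higher in replicate 1. Klk1b8 was at 0.79 TPM (19 counts) in replicate 1 and 0.44 TPM (13 counts) in replicate 2. Klk1b3 had 9 counts in each library. Klk1b24, another gene described in Leydig cells, was at 0.42 TPM (10.4 counts) in replicate 1 and 0.68 TPM (20.51 counts) in replicate 2, and Klk1b11 at 0.21 TPM (5 counts) and 0.51 TPM (15 counts). In each of Klk1b8, Klk1b3, Klk1b24, Klk1b11 and Klk1b21 the counting interval of the ratio included 1. Klk1b4 had 2 counts in replicate 1 and 1 in replicate 2, and Klk1b1 and Klk1b9 each had 1 in replicate 1 and 2 in replicate 2. Klk1b16, known as gamma-renin, had 0 in replicate 1 and 1 in replicate 2. The pseudogene Klk1b7-ps had 0 in both.

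Transcripts of Klk1 and the Klk1b genes were 80.92% to 94.44% identical in pairs, with a median of 86.48% over 91 pairs. The closest pair was Klk1 with Klk1b5, and 85.89% of the 76-base words of Klk1 and 89.44% of those of Klk1b5 were unique. Sequences compared here are of a later annotation than the one counted. In it Klk1b5 has 1391 bases against 862 as counted, and Klk1 has 954 against 876. The shares of unique words therefore describe the counted transcripts only in part. Counts of these genes may be shared among relatives, and fractional counts such as the 15.67 of Klk1 come from reads that were divided.

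The other 12 kallikreins were low in both libraries, and 3 of them had 3 or more counts in each. Their summed level was 1.49 TPM (60 counts) in replicate 1 and 1.72 TPM (87 counts) in replicate 2, and none reached 1 TPM in either. Klk10, a kallikrein of epithelia, was highest, at 0.57 TPM (24 counts) in replicate 1 and 0.88 TPM (46 counts) in replicate 2. Klk8, the neuropsin of brain and skin, followed at 0.49 TPM (20 counts) in replicate 1 and 0.57 TPM (29 counts) in replicate 2. Klk13 had 3 counts in replicate 1 and 6 in replicate 2. Klk11 had 8 counts in replicate 1 and 1 in replicate 2, a count share 9.19 times as high in replicate 1 with a counting interval from 1.23 to 408, and Klk14 had 4 and 2 counts. Klk5, the skin protease of desquamation, Klk6, the neurosin of the central nervous system, Klk12 and Klk15 had 0 counts in both libraries. Klk7, which acts with Klk5 in skin, Klk4, the protease of tooth enamel, and Klk9 had at most 2 counts in a library. Of these 12 genes, 11 shared no 76-base word with another transcript. A transcript on the opposite strand, 2310002F09Rik, overlaps 7 of them from Klk8 to Klk14 and had 0 counts in replicate 1 and 1 in replicate 2. Whether strand was used in the counting is not given in the sources.

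Among the genes with enough counts for a call, all differences over 2-fold were lower in replicate 1, a direction that the count filter fixed for most of them. An average of at least 20 expected counts over both libraries was reached by 12 of the 34, and 7 of the 12 were over 2-fold lower in replicate 1 on the scale of log2(TPM + 1), with 0 over 2-fold higher. Of all 16920 genes at that count, 2.7% were over 2-fold apart, 1.15% lower in replicate 1 and 1.54% higher. The 7 were Svs1, Svs2, Svs3a, Svs4, Svs5, Klk1b22 and Klk1b27. Their log2 ratios, replicate 1 over replicate 2, were -4.70 for Svs5, -3.76 for Klk1b22, -3.70 for Svs4, -3.31 for Klk1b27, -2.78 for Svs1, -2.06 for Svs2 and -1.71 for Svs3a. The 5 not called were Klk1, Klk1b26, Klk10, Klk1b5 and Klk8, at -0.57, -0.55, -0.26, -0.14 and -0.08, although Klk1 passed 2-fold with a pseudocount of 0.1 or with DESeq2 size factors, and Klk1b26 with those size factors. Of the 7, all but Klk1b27 had 0 counts in replicate 1 and reached an average of 20 through replicate 2 alone. Their direction was therefore fixed by the filter. Klk11, higher in replicate 1 by share of counts, was below that average. The median log2 ratio was -1.89 over the 12 genes, which were chosen by the same filter, and 0.11 over all 16920. From the lowest ratio upward, Svs5 stood at place 2 of the 16920, Klk1b22 at 7, Svs4 at 8 and Klk1b27 at 13, followed by Svs1 at 19, Svs2 at 44 and Svs3a at 65.

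**Figure D2:**
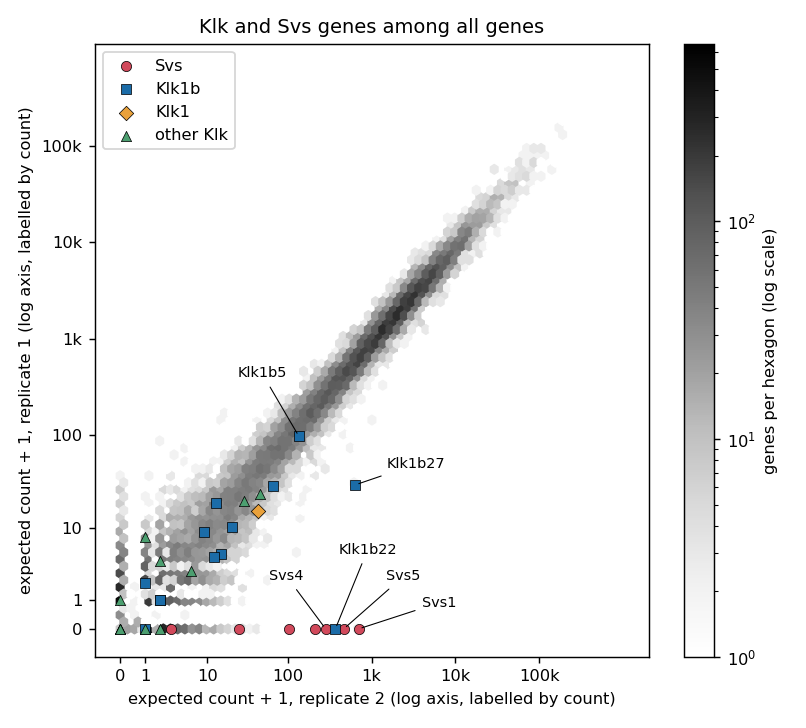
Expected counts of all genes with a count in either library, replicate 1 on the vertical and replicate 2 on the horizontal axis, both as log10(count + 1); grey hexagons hold the numbers of genes and coloured points are the Klk and Svs genes except the pseudogene. Klk1b5 lies in the main band of genes, whereas Svs1, Svs4, Svs5 and Klk1b22 lie on the line of 0 counts in replicate 1, at 696, 282, 463 and 368 counts in replicate 2.

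Genes with many counts in 1 library and 0 in the other were rare. Of 16956 genes with 20 or more counts in replicate 2, 21 (0.124%) had 0 in replicate 1, and 7 of the 21 were among the 14 kallikrein and Svs genes with that count. At 100 or more counts in replicate 2, 7 of 13934 genes (0.0502%) had 0 in replicate 1. These were 6 of the 8 kallikrein and Svs genes at that count, namely Svs1, Svs2, Svs3a, Svs4, Svs5 and Klk1b22, and the long noncoding RNA 9230019H11Rik with 652 counts in replicate 2. In the opposite direction, 22 of 16843 genes (0.131%) with 20 or more counts in replicate 1 had 0 in replicate 2, and 1 of 13784 (0.00725%) with 100 or more. No kallikrein or Svs gene was among those. Only Klk1b5, Klk1b27, Klk1b26, Klk10 and Klk8 had 20 or more counts in replicate 1, and none had 100. Few of the 34 genes could thus have been listed in this direction.

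Short motifs before the start differed between the families. Windows of related genes resemble each other, as seen above for Svs5 with Svs6, so genes of a family are not independent occurrences of a motif. The share over all windows is printed for scale only. TATAAA on the gene strand occurred in the 250 bases before the start of 6 of 7 Svs genes, 0 of 14 Klk1 and Klk1b genes and 1 of 12 other kallikreins, against 7.592% of 32851 windows in the RefSeq table. In Svs3a, Svs3b, Svs4, Svs5 and Svs6 a copy began 28 to 32 bases before the start, and in Svs2 copies began 205 and 236 bases before it. TTTAAA, a palindrome and so the same on both strands, occurred in 12 of 13 Klk1b genes, in 3 Svs genes and in neither Klk1 nor any other kallikrein, against 12.076% of windows. It began 13 to 48 bases before the annotated start in those 12 Klk1b genes, and 22 bases before it in Svs2, 214 in Svs3a and 213 in Svs3b. Whether TTTAAA acts as a TATA box was not tested. AGAACA or its reverse complement TGTTCT was searched as the androgen receptor half-site, and is also the hexamer of glucocorticoid receptor elements. It occurred in 5 of 7 Svs genes, 2 of 13 Klk1b genes and 3 of 12 other kallikreins, against 16.085% of windows. The full androgen response element, searched as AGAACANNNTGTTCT, occurred in 0 of the 33 genes with a window, against 0.009% of all windows.

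**Figure D3:**
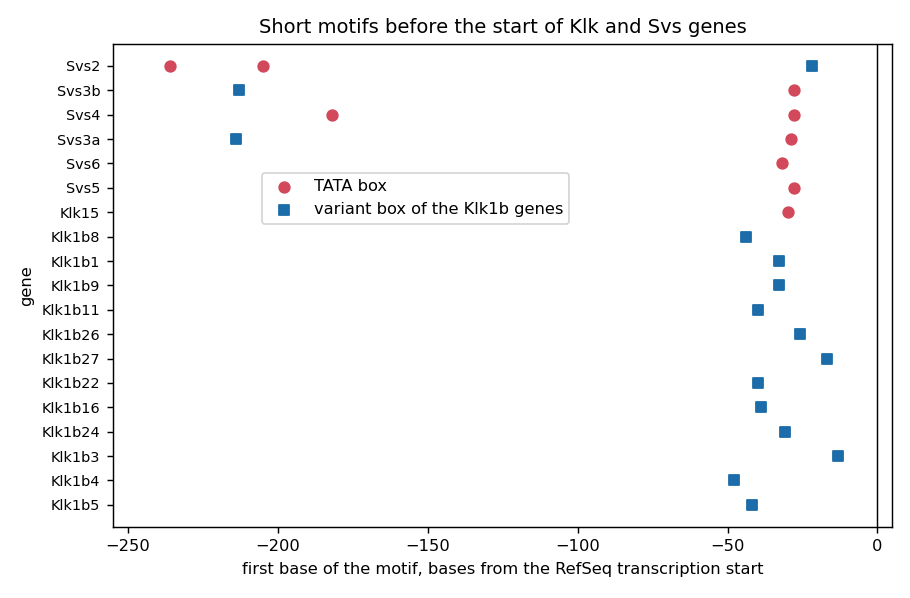
Position of TATAAA (circles, TATA box) and of TTTAAA (squares, labelled variant box of the Klk1b genes) in bases from the RefSeq transcription start, in chromosome order. Each gene with a match is shown. A TATAAA copy of 5 Svs genes lies 28 to 32 bases before the start, and the TTTAAA of 12 Klk1b genes lies 13 to 48 bases before it. TTTAAA is also marked in Svs2, at 22 bases, and in Svs3a and Svs3b, at 214 and 213 bases.

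The nearest protein-coding neighbours of the Svs cluster were present in both libraries. The 6 Svs genes of chromosome 2 span 164235929 to 164334396 (mm10). On the side of lower coordinates lies Wfdc15b, a gene of the whey acidic protein family, at 344.83 TPM in replicate 1 and 587.54 TPM in replicate 2, 14269 bases from the cluster. On the other side, 19674 bases away, lies Slpi, which encodes a secreted inhibitor of serine proteases, at 60.03 TPM in replicate 1 and 66.57 TPM in replicate 2. Kcns1, a potassium channel subunit gene within 100 kb, was at 0.38 TPM (35 counts) in replicate 1 and 1.69 TPM (195 counts) in replicate 2, and Wfdc12 had 2 counts in replicate 1 and 16 in replicate 2. Wfdc15a, at 1.28 TPM (13 counts) in replicate 1 and 0.49 TPM (6 counts) in replicate 2, and Matn4, at 1.17 TPM (93 counts) and 0.68 TPM (71 counts), lay the other way.

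**Figure D4:**
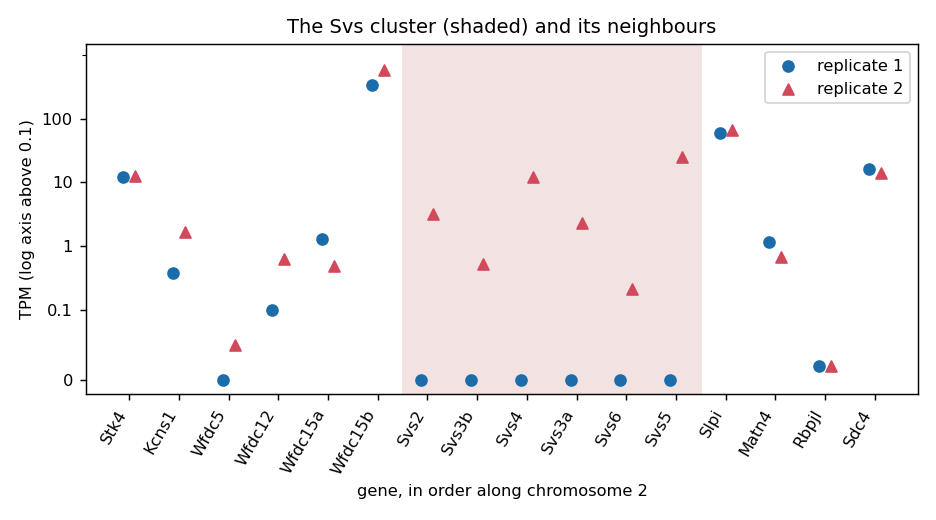
TPM of the 6 Svs genes of chromosome 2 (shaded) and of the protein-coding genes within 100 kb on either side, in chromosome order, in replicate 1 (circles) and replicate 2 (triangles), on an axis that is logarithmic above 0.1. The shaded genes are at 0 in replicate 1, while Wfdc15b is at 344.83 and 587.54 TPM and Slpi at 60.03 and 66.57 TPM.

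Svs1 lies alone on chromosome 6 at 48986861 to 48991722, next to Doxl2, an amine oxidase relative with 0 counts in replicate 1 and 3 in replicate 2. Aoc1, a diamine oxidase gene within 100 kb on that side, was at 2.56 TPM in replicate 1 and 2.12 TPM in replicate 2. On the other side Gpnmb, a glycoprotein gene, was at 34.41 TPM in replicate 1 and 38.89 TPM in replicate 2. All 27 kallikreins lie on the plus strand of chromosome 7 between 43690418 and 44229618. Gm10109, a pseudogene on the opposite strand, overlaps Klk1 and had 3 counts in replicate 1 and 2 in replicate 2. The nearest protein-coding gene, 1700028J19Rik, 193 bases beyond Klk1, was at 5.24 TPM (201 counts) in replicate 1 and 2.66 TPM (126 counts) in replicate 2. On the other side Ctu1, which acts in tRNA modification, was at 12.37 TPM in replicate 1 and 8.81 TPM in replicate 2. Both were higher in replicate 1, unlike Klk1b22 and Klk1b27.

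Other secretion genes of the seminal vesicle and prostate were listed to see whether they followed the Svs genes. Of 16 such genes outside the 34, 4 reached 1 TPM in both libraries. On the scale of log2(TPM + 1), which understates low genes, 0 of the 7 with the count for a call were over 2-fold apart. By share of counts Pate4 and Apof were, in opposite directions. The replicate 1 share was 0.398 (0.245 to 0.630) of that in replicate 2 for Pate4 and 16.1 (6.58 to 51.1) times it for Apof. Sva, a seminal vesicle antigen, had 0 counts in replicate 1 and 29 counts (1.48 TPM) in replicate 2. Pate4, a secreted protein gene of the seminal vesicle, was at 0.82 TPM (26 counts) in replicate 1 and 1.92 TPM (75 counts) in replicate 2. Spink1, a trypsin inhibitor of seminal vesicle and pancreas, had 0 counts in replicate 1 and 12 in replicate 2. These low genes, like the Svs genes, were lower in replicate 1. The abundant members were closer between the libraries: Spink8 was at 1657.14 TPM in replicate 1 and 2427.88 TPM in replicate 2, and Ceacam10 at 386.29 and 408.09 TPM. Apof, an apolipoprotein gene, lay the other way, with 70 counts in replicate 1 and 5 in replicate 2.

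The 9 markers of seminal vesicle epithelium, 7 of them Svs genes, summed to 0.82 TPM in replicate 1 and to 52.47 TPM in replicate 2. Of the 9, 8 had 0 counts in replicate 1. The Svs genes held 0 TPM of that sum in replicate 1 and 49.07 TPM in replicate 2, which repeats the values above. Outside the Svs genes the list held only Sva and Pate4. Sva had 0 counts in replicate 1 and 29 in replicate 2, and Pate4 had 26 and 75. The 7 prostate markers summed to 0.61 TPM in replicate 1 and to 1.83 TPM in replicate 2. Among them, Msmb and Sbp had 0 counts in both libraries, Pbsn, the probasin gene, had 0 in replicate 1 and 1 in replicate 2, and Tgm4, the transglutaminase of the plug, had 15 in replicate 1 and 27 in replicate 2.

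Markers of some other tissues differed between the libraries in the same direction as the Svs genes. All 6 exocrine pancreas markers were over 2-fold lower in replicate 1, with a sum of 15.13 TPM in replicate 1 and 98.29 TPM in replicate 2. Cela1, a pancreatic elastase, was at 8.32 TPM (275 counts) in replicate 1 and 47.47 TPM (1939 counts) in replicate 2, and Ctrb1, chymotrypsinogen, at 3.56 TPM (89 counts) and 27.23 TPM (839 counts). None of the 6 pancreatic genes was at 0 in either library. Of the 4 skeletal muscle markers 1 was over 2-fold lower in replicate 1 on the scale of log2(TPM + 1). It was Mylpf, at 0.63 TPM in replicate 1 and 5.83 TPM in replicate 2. By share of counts Myh4 was also over 2-fold lower, with 5 counts in replicate 1 and 56.8 in replicate 2. The list summed to 89.36 TPM in replicate 1 and to 124.41 TPM in replicate 2. Of the adipocyte markers 1, the leptin gene Lep, was over 2-fold lower in replicate 1, at 92.08 TPM in replicate 1 and 574.78 TPM in replicate 2. The part of these tissues in the kallikrein and Svs values was not tested.

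Most epididymal markers lay the other way. Of the 8, 2 were over 2-fold higher in replicate 1 on the scale of log2(TPM + 1), Lcn8 and Spag11b, and 0 over 2-fold lower. By share of counts Lcn8 was 2.33 times as high in replicate 1 and Spag11b only 1.45 times. Crisp1, a sperm-binding secretory gene, was at 1453.33 TPM in replicate 1 and 2544.77 TPM in replicate 2, in the direction of the Svs genes. The 5 Leydig cell markers summed to 51.36 TPM in replicate 1 and to 32.48 TPM in replicate 2. Insl3, the hormone gene of Leydig cells, was at 31.04 TPM in replicate 1 and 8.13 TPM in replicate 2, the opposite order to Klk1b27, and Cyp17a1, an enzyme of androgen synthesis, at 18.76 and 23.63 TPM.
The submandibular gland markers summed to 50.59 TPM in replicate 1 and to 65.62 TPM in replicate 2, with 0 over 2-fold apart among the 5 of 10 that had the count for a call. Its secretory genes Smgc, Dcpp1, Dcpp2 and Prol1 had 0 counts in both libraries. The 8 epidermis markers summed to 102.83 TPM in replicate 1 and to 93.98 TPM in replicate 2, with 0 over 2-fold apart among the 5 that had the count for a call.

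**Figure D5:**
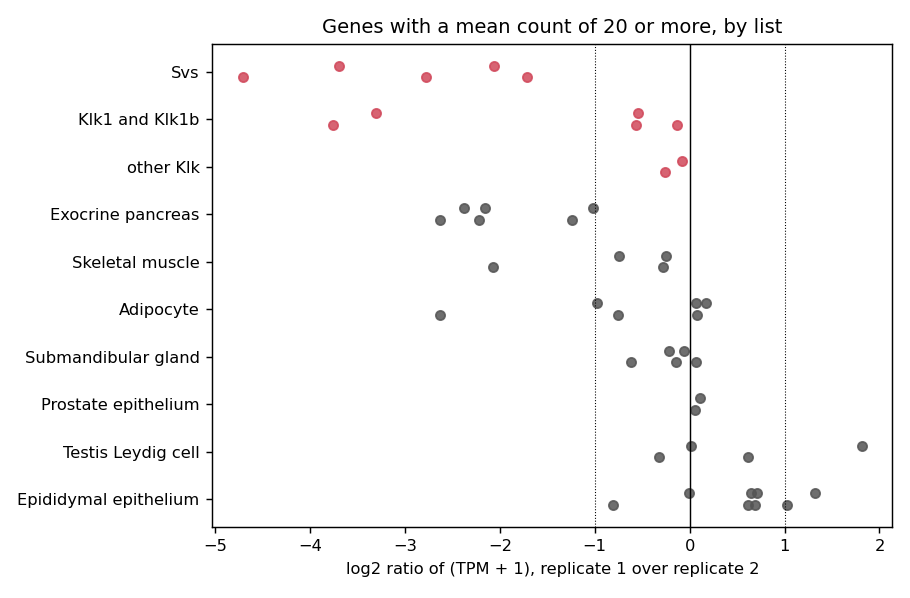
Log2 ratio of (TPM + 1), replicate 1 over replicate 2, for genes whose expected counts averaged at least 20, by family (red) and by list of marker genes (grey); dotted lines mark 2-fold differences. The Svs genes and the exocrine pancreas genes all lie left of the 2-fold line, while 2 epididymal genes and 1 Leydig cell gene lie right of the other.

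Of the regulators of accessory gland epithelium, Gata2, a transcription factor of several lineages, was at 15.44 TPM in replicate 1 and 15.29 TPM in replicate 2. Hoxb13, a homeobox gene of the prostate, was at 0.01 TPM (1 count) in replicate 1 and 0.03 TPM (3 counts) in replicate 2.

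Inhibitors of kallikreins and similar proteases were more abundant by TPM than the 27 kallikreins, which summed to 10.69 TPM in replicate 1 and to 45.8 TPM in replicate 2. Of 13 measured, 7 reached 1 TPM in both libraries, and their list summed to 446.32 TPM in replicate 1 and to 721.53 TPM in replicate 2. Eppin, which binds semenogelin on sperm in humans, was at 173.19 TPM in replicate 1 and 170.89 TPM in replicate 2. Serpina3n and Serpina1a, secreted serpins, were the 2 that were over 2-fold lower in replicate 1. Serpina3n was at 121.04 TPM in replicate 1 and 381.17 TPM in replicate 2, and Serpina1a at 3.92 and 31.82 TPM. Spink5, the skin inhibitor of Klk5 and Klk7, was at 26.96 TPM in replicate 1 and 15.58 TPM in replicate 2.

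Of 15 measured genes of the kinin system and candidate substrates, 9 reached 1 TPM in both libraries and 14 had the count needed for a call, with 0 over 2-fold apart on the scale of log2(TPM + 1). That scale understates low genes: Plg, which encodes plasminogen, had 79 counts (0.83 TPM) in replicate 1 and 2 counts (0.02 TPM) in replicate 2. Ace, which degrades kinins, was at 374.06 TPM in replicate 1 and 205.5 TPM in replicate 2. Bdkrb2, the constitutive kinin receptor, was at 1.26 TPM in replicate 1 and 0.78 TPM in replicate 2. Kng1, which encodes kininogen, was at 0.73 TPM (40 counts) in replicate 1 and 0.03 TPM (3 counts) in replicate 2. The growth factor gene Egf, whose product is bound by Klk1b proteases in the salivary gland, was at 14.06 TPM in replicate 1 and 14.68 TPM in replicate 2. Of the semen coagulum list of 11 genes, 7 are among the 34. Outside them, Clu, the clusterin gene, was at 9824.79 TPM in replicate 1 and 6379.83 TPM in replicate 2, and Ltf, lactoferrin, was over 2-fold lower in replicate 1, at 8.1 TPM in replicate 1 and 35.92 TPM in replicate 2.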

How the data were processed

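Gene and transcript tables of both libraries were used as deposited by the authors. They gave an expected count, TPM, FPKM and posterior means, and the transcript tables the percent of a gene's TPM per transcript, per the file headers. The authors also deposited lengths, the SD of each count and bounds of TPM, whose level is not stated. Build mm10 and GENCODE M4 are named in the deposited notes; which aligner and quantifier were run is not given in the sources used here. Junction and contig tables on mm9 were not used here.

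Symbols (42462 of 43346 genes) and positions came from GENCODE M21 on mm10, which holds 44 genes that match the symbol rule, 10 of them absent from the M4 tables. Upstream windows came from RefSeq, GRCm38.p6, matched for 33 of 34 genes by symbol, and searched as exact letters. Transcript sequences came from M21, and some differ in length from the M4 transcripts that were counted. Windows and transcripts were aligned globally in Biopython 1.88. Ratios are replicate 1 over replicate 2 of TPM + 1; over 2-fold was called at a mean expected count of 20 or more. Count ratios carry exact conditional binomial 95% intervals, and floors are 3 counts per library; both cover counting error only. Alternatives covered thresholds, pseudocount 0.1, posterior means, FPKM, scaling by TMM (edgeR 4.0.16) and by DESeq2 1.42.0 size factors on rounded counts, removal of mitochondrial genes, and each replicate alone. The 2-fold code was tested on simulated data. With 1 group there is no test and no p-value. Members, lists and thresholds were chosen with earlier results of these data known. Each of the 34 genes is named, those with 3 counts in both libraries with full values; list members and neighbours given as examples were picked after their values were seen. Protein sequences are not used here. Some list members are not reported here.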

Additional observations from a re-analysis of the deposited data

How the results depend on the processing

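No direction reversed: each of 18 named genes kept 1 sign of its ratio under 6 other settings. For Svs1, Svs2, Svs3a, Svs4, Svs5 and Klk1b22, with 0 counts in replicate 1, no scaling or pseudocount could have changed the sign. A kept sign also shows little for genes whose counting interval included 1, such as Klk1b3 with 9 counts in each library. The number of genes at 1 TPM in both libraries was 3; it was 5 at a threshold of 0.5 TPM, 1 at 2 TPM, 1 with FPKM at the same threshold, and 3 to 10 with each replicate alone, 10 being without replicate 1. Genes with 3 counts in both libraries numbered 12, and 14 to 20 with each replicate alone, 20 being without replicate 1. The mean share of gene TPM was 0.00542%, and 0.00111% to 0.00973% with each replicate alone. Genes over 2-fold apart numbered 7, and 6 to 9 under other settings, none higher in replicate 1: Svs3a was lost at a minimum mean count of 100, Klk1 was added with a pseudocount of 0.1, and Klk1 and Klk1b26 with DESeq2 size factors. The log2 ratio of Svs5, -4.70, was -7.97 with a pseudocount of 0.1, -8.79 with DESeq2 size factors and -3.28 as CPM with TMM factors. No paired analysis was possible because the series holds 1 group. With 2 libraries, which may share animals, the spread between mice is unknown, and levels near 3 counts cannot be ordered.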
